A study of Mus musculus with 10 samples.

Results

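The 8 genes described here encode proteins of the podocyte slit diaphragm and foot processes (Nphs1, Kirrel, Podxl, Ptpro, Magi2, Plce1 and Synpo) and a podocyte transcription factor (Wt1), and are called slit diaphragm genes below. They were taken by name, whatever their level, and all 8 were found among the 21792 genes with a value in the kidney cortex of 10 mice. The study compared mice with aristolochic acid nephropathy (AAN), a toxic tubular injury that goes on to fibrosis, with control mice labelled sham. All 10 were wild type male C57BL/6 mice, aged 8 weeks when injected, and each was sequenced as a sample of its own with no pooling. The 6 AAN mice were given aristolochic acid (5 mg/kg) in 1 injection into the peritoneum, the 4 sham mice PBS in its place, with no operation in either group. Cortex was taken at day 28 after the injection.

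Podocytes are the epithelial cells that wrap the capillaries of the glomerulus. Their interlocking foot processes are joined by the slit diaphragm, a cell junction built from nephrin (Nphs1) and the related protein Neph1 (Kirrel), which is anchored to the actin cytoskeleton through adaptors such as CD2AP and which holds back plasma protein. Loss of nephrin or phospholipase C epsilon (Plce1) causes inherited nephrotic syndrome, and Wt1 is the transcription factor that keeps podocyte genes on. Podocytes are a small share of the cells of the cortex, and in RNA from whole cortex fewer cells of a type and less RNA per cell cannot be told apart.

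The levels were FPKM, fragments per kilobase of transcript scaled to sequencing depth, so that genes can be compared per length. A gene was called higher or lower at a limma adjusted p of at most 0.05 over all 17129 genes tested if the level also differed by 2-fold or more (0.5 or less when lower), and fold changes are on the scale of log2(FPKM + 0.1), which understates the change of genes with low levels. Of the 8 slit diaphragm genes, 3 were called higher in AAN (Kirrel, Ptpro and Synpo), beside 35.8% of all genes tested. None was called lower by limma, beside 3.43% of all genes, and none had a lower level in AAN at an unadjusted p under 0.05 either. In 3 of the 8 (Kirrel, Ptpro and Plce1) every AAN mouse lay above every sham mouse, as in 40.3% of all genes, and in none did every AAN mouse lie below, as in 3.25%. The share of these genes called higher was thus near that of all genes.

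A rise in FPKM in AAN was the common state of the genes tested: the median log2 fold change over all 17129 was 0.75, and the median of the 8 slit diaphragm genes was 0.84, with 4 of the 8 above that of all genes. The split of calls over all genes was 6126 higher and 588 lower with the values as deposited, 3261 and 1801 after rescaling by median ratios between the mice (median of ratios), and 2232 and 2157 after quantile normalization. With the same FPKM total in every mouse it was 8837 and 332, and 4 of the 8 slit diaphragm genes were called higher. With a pseudocount of 0.01 in place of 0.1, 4 of the 8 were also called higher. After the median of ratios or quantile normalization, and also with a pseudocount of 1, 1 of the 8 slit diaphragm genes, Kirrel, was called higher. The change of each of the 8 genes is therefore given also relative to the median of all genes.

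The samples differed in the share of the FPKM total that came from mitochondrially encoded genes, which was 39.5%, 61.4%, 54.0% and 46.2% in the sham mice B607, B634, B636 and H249, and between 21.4% and 55.0% in AAN with a median of 33.6%. The depth recovered from the step between low values was 15.8 to 17.5 M fragments in sham and 13.4 to 16.5 M in AAN. More genes had a value above 0 in every AAN mouse (19158 to 19636) than in any sham mouse (16690 to 17639). The AAN mouse B614 stood apart from the other 5: its summed level of 8 proximal tubule genes was 2200.0 FPKM, against at most 1060.0 in the others, and its summed level of 6 macrophage genes was 610.0 FPKM, against at least 1250.0. The part of these differences in the results was not tested. Without B614 the number of slit diaphragm genes called higher was again 3, with Kirrel at 2.14, Ptpro at 1.21 and Synpo at 1.08 on the log2 scale.

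The genes are given here with their places in the mouse genome (GRCm38, GENCODE annotation). Nphs1 (ENSMUSG00000006649) lies on the plus strand at chr7:30458315-30487223, head to head with Kirrel2 on the minus strand. How strand entered the counting is not given in the sources used here, so reads antisense to a gene cannot be told apart from its own. Kirrel (ENSMUSG00000041734) lies on the minus strand at chr3:87078593-87174747, Podxl (ENSMUSG00000025608) on the minus strand at chr6:31519488-31563981, Magi2 (ENSMUSG00000040003) on the plus strand at chr5:19227036-20704792, Plce1 (ENSMUSG00000024998) on the plus strand at chr19:38481109-38785030 and Wt1 (ENSMUSG00000016458) on the plus strand at chr2:105126529-105173616. Ptpro (ENSMUSG00000030223) is annotated on the plus strand at chr6:137252319-137463233.

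RefSeq promoter windows (GRCm38.p6), which run from upstream of a gene's start to just past it, were at hand for 5 of the 8 genes (Kirrel, Magi2, Ptpro, Nphs1 and Plce1, in 6 windows), and not for Podxl, Wt1 and Synpo. Because Wt1 is itself among the genes, the windows were searched on both strands for the letters GTGGGAG, part of a sequence that the WT1 protein binds, and for GCGGGGGCG, a site it shares with the EGR1 protein. Letters GTGGGAG stood in 1 of the 6 windows, that of Ptpro, and in 9.73% of all 32851 windows. Letters GCGGGGGCG stood in none of the 6 and in 2.91% of all. The letters TAATTA, the core bound by LIM homeodomain factors such as Lmx1b, stood in 1 of the 6, a Magi2 window, and in 5.29% of all. No motif holds another within it. The 250 bases before the RefSeq start of Ptpro, chr6:137252049-137252298 on the plus strand, which lies slightly upstream of the GENCODE start given above, are shown because Ptpro was the gene whose window held the WT1 letters and one of the 3 called higher, with the match in capitals.
Ptpro: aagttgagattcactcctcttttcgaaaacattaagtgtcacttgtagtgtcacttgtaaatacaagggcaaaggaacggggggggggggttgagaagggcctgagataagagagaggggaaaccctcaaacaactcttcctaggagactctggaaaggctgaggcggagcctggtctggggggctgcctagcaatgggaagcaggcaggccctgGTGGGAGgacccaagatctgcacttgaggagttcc
A match describes the letters of the window and says nothing of binding in these mice.

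In sham cortex Podxl was the highest with a mean of 30.2 ± 15.8 FPKM (SD, n = 4), followed by Nphs1 at 5.0 ± 0.971, Ptpro at 1.56 ± 0.605 and Kirrel at 0.646 ± 0.178, and the ranges of these neighbours did not overlap. Synpo (0.492 ± 0.117), Wt1 (0.393 ± 0.179), Magi2 (0.366 ± 0.113) and Plce1 (0.221 ± 0.0295) came next, the range of each overlapping that of the one before it. Wt1 lay above Magi2 in 2 of 4 mice, and Magi2 above Plce1 in 4 of 4. In AAN Podxl (37.3 ± 20.4 FPKM, SD, n = 6), Nphs1 (6.93 ± 1.75) and Ptpro (3.78 ± 0.772) again came first in that order. Kirrel, at 3.15 ± 0.433, then overlapped Ptpro, which lay above it in 5 of 6 mice, and no longer overlapped Synpo (1.33 ± 0.753). Wt1 (0.686 ± 0.254), Plce1 (0.551 ± 0.175) and Magi2 (0.375 ± 0.202) were the lowest and overlapped one another in order.

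**Figure D1:**
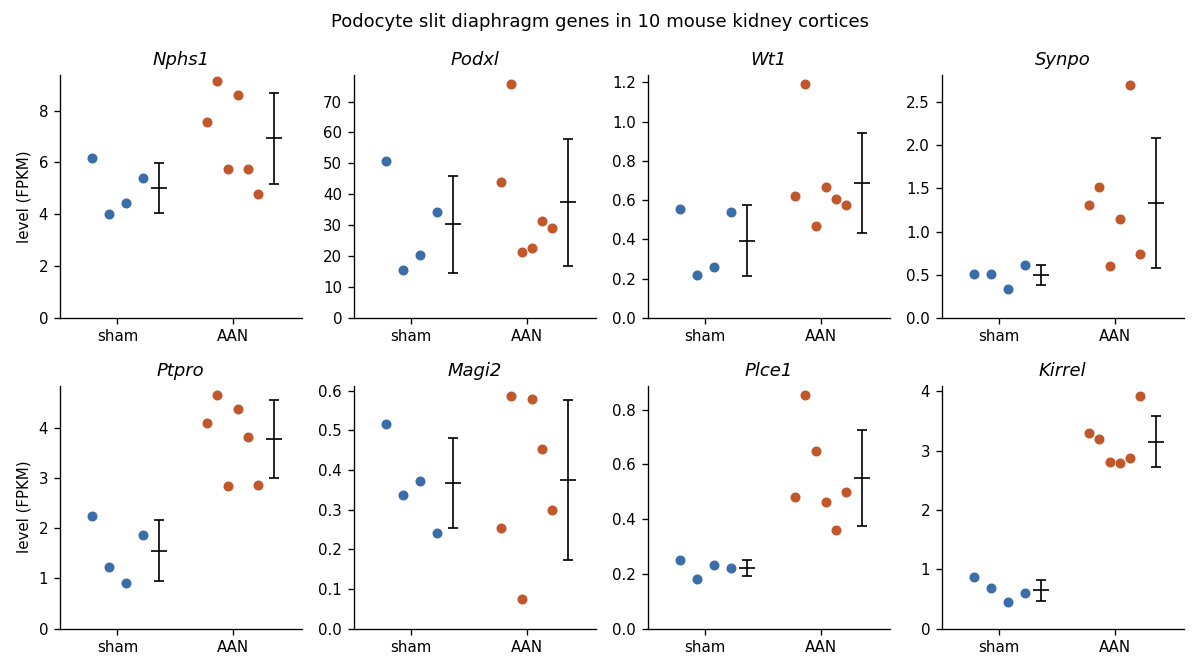
Level in FPKM (vertical axis, from 0, with its own scale for each gene) of the 8 genes in 4 sham and 6 AAN mice, with a point for each mouse and the mean ± SD as a black bar beside each group. Kirrel, Ptpro and Plce1 have no AAN mouse within the sham range, whereas Podxl and Magi2 overlap widely.

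Among the genes of proteins that span the slit, Kirrel RNA rose in whole cortex and Nphs1 did not pass the test. Which cells of the cortex carried the Kirrel RNA was not tested. Kirrel encodes Neph1, which binds nephrin across the slit and within the same membrane. It was at 0.868, 0.677, 0.441 and 0.596 FPKM in the sham mice B607, B634, B636 and H249, and at 2.79 (B639) to 3.92 (B666) in AAN with a median of 3.04. Even the lowest AAN mouse lay far above the highest sham mouse. On the log2 scale Kirrel rose by 2.14 ± 0.19 (SE; 4.42-fold, 95% interval 3.3 to 5.92), with a limma adjusted p of 2.41e-06. This was 1.40 above the median of all genes, and Kirrel stood at the 87.6th percentile of all genes tested and between the 85.9th and 88.2nd under the 5 scalings compared.

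Nphs1 encodes nephrin, the cell adhesion protein that defines the slit diaphragm. Its levels were 6.18, 4.02, 4.42 and 5.38 FPKM in the sham mice and 4.79 (B666) to 9.13 (B614) in AAN, with a median of 6.66. The groups overlapped, and 3 of the 6 AAN mice lay above every sham mouse. The log2 fold change was 0.44 ± 0.21 (1.36-fold, 95% interval 0.986 to 1.88), with a limma adjusted p of 0.0882 and an exact permutation p of 0.0714, unadjusted and two-sided over the 210 ways of splitting the mice, where 0.00476 is the smallest possible. The estimate was 0.30 below the median of all genes and turned to -0.31 under the median of ratios and -0.29 under quantile normalization, so that no direction can be given for nephrin RNA.

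Podxl and Ptpro encode proteins of the apical surface of the foot processes. Podocalyxin (Podxl) is the charged sialomucin that keeps neighbouring processes apart, and endothelial cells also make it. Its levels were 50.8, 15.6, 20.2 and 34.2 FPKM in the sham mice and 21.3 (B630) to 75.6 (B614) in AAN, with a median of 30.2. The spread within each group was wider than the gap between the groups, and in sham the order of the mice was the reverse of their order by mitochondrial share, the part of which was not tested. The log2 fold change was 0.31 ± 0.40 (1.24-fold, 95% interval 0.679 to 2.25; limma adjusted p = 0.516) and -0.44 relative to the median of all genes, and it turned to -0.46 under the median of ratios and -0.02 under quantile normalization. Leaving out each mouse in turn gave 0.0399 (without sham mouse B634) to 0.60 (without sham mouse B607). Ptpro encodes a receptor tyrosine phosphatase, first described in the glomerulus as GLEPP1, and macrophages carry it too. It was at 2.24, 1.22, 0.908 and 1.86 FPKM in sham and 2.84 (B630) to 4.66 (B614) in AAN, with a median of 3.97, and no AAN mouse fell within the sham range. Ptpro rose by 1.28 ± 0.25 on the log2 scale (2.42-fold, 95% interval 1.65 to 3.56; limma adjusted p = 0.00105), or 0.53 above the median of all genes. Under the median of ratios it was 0.55 with an adjusted p of 0.0618 and was not called, and a sense-intronic gene within Ptpro, Gm44258, was listed at 0 in all mice but AAN mouse B642 (0.632 FPKM).

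Magi2 and Plce1 lie beneath the membrane. Magi2 encodes a scaffold protein with PDZ domains that binds nephrin. It was at 0.515, 0.336, 0.372 and 0.242 FPKM in sham and 0.0738 (B630) to 0.587 (B614) in AAN, with a median of 0.377. The AAN mice lay on both sides of the sham range, and the log2 fold change of -0.08 ± 0.38 (0.944-fold, 95% interval 0.533 to 1.67) had a limma adjusted p of 0.857. This was the lowest of the 8 against all genes, 0.83 below their median, at the 15.5th percentile. After quantile normalization it was called lower (-1.32 on the log2 scale, adjusted p = 0.0127), and it turned to 0.18 without AAN mouse B630 and to 0.06 without sham mouse B607. The value in B630 rests on at most 7.54 fragments. Gm29254, annotated as an overlapping RNA at the 3′ end of Magi2 on the same strand, was at 0.0324, 0, 0 and 0 FPKM in sham and 0 to 0.345 in AAN.

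Plce1 encodes phospholipase C epsilon, a signalling enzyme needed for the glomerulus to mature. It was at 0.249, 0.18, 0.232 and 0.223 FPKM in sham and 0.361 (B642) to 0.854 (B614) in AAN, with a median of 0.489. All 6 AAN mice lay above the sham range. The log2 fold change of 0.98 ± 0.23 (1.98-fold, 95% interval 1.39 to 2.82) had a limma adjusted p of 0.00325 and lay just under the limit of 2-fold, so the gene was not called. It was 0.24 above the median of all genes. It was 0.41 under the median of ratios (limma adjusted p = 0.172) and -0.30 after quantile normalization. Plce1 was called higher with the same FPKM total in every mouse (1.25), with the same total without mitochondrial genes (1.0041) and with a pseudocount of 0.01 (1.24). Leaving out 1 of the mice B607, B636, A483, B639, B642 or B666 took it past 2-fold, at up to 1.08 on the log2 scale, and it was then called higher.

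Synpo and Wt1 stand for the cytoskeleton and for the transcription of podocyte genes. Synaptopodin (Synpo) is an actin-associated protein of the foot processes. It was at 0.513, 0.506, 0.334 and 0.616 FPKM in sham and 0.595 (B630) to 2.7 (B642) in AAN, with a median of 1.23, and 5 of the 6 AAN mice lay above every sham mouse. Synpo rose by 1.15 ± 0.35 on the log2 scale (2.22-fold, 95% interval 1.3 to 3.77; limma adjusted p = 0.0139), or 0.40 above the median of all genes. Without AAN mouse B642 it was 0.92 and not called, and it was 0.48 under the median of ratios and -0.10 under quantile normalization. Synpo (ENSMUSG00000043079) is annotated on the minus strand at chr18:60593973-60660142.

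Wt1 was at 0.555, 0.219, 0.259 and 0.541 FPKM in sham and 0.466 (B630) to 1.19 (B614) in AAN, with a median of 0.611. All AAN mice but B630 lay above the sham range, and B630 lay between the sham mice. The log2 fold change of 0.70 ± 0.29 (1.62-fold, 95% interval 1.04 to 2.53) had a limma adjusted p of 0.0568 and an exact permutation p of 0.0333, unadjusted. It was 0.05 below the median of all genes, and it was -0.58 after quantile normalization. The levels of Wt1 rest on at most 10.7 to 57.6 fragments a mouse, against 1330 to 6390 for Podxl.

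**Figure D2:**
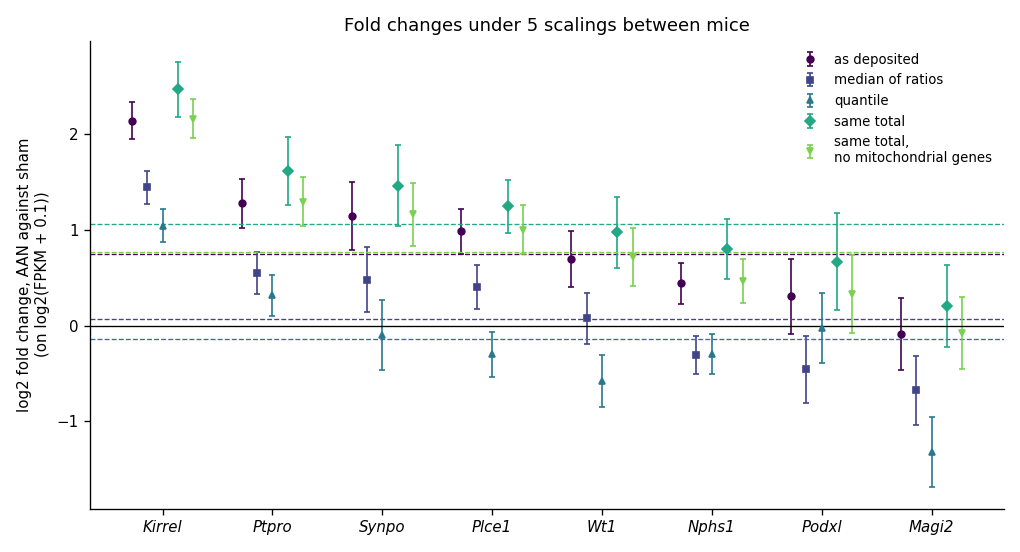
Log2 fold change (vertical axis, AAN against sham, on log2(FPKM + 0.1)) of the 8 genes under 5 ways of scaling the 10 mice, with bars for ± SE and dashed lines for the median of all genes tested under each scaling. Kirrel lies above 0 and above the dashed line of its scaling in all 5, as does Ptpro, whereas the other 6 genes change sign under at least 1 scaling.

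The FPKM ratio of a pair of genes in the same mouse does not change when all values of a mouse are multiplied by the same factor. Quantile normalization is not such a scaling and can change it. Each gene was also set against Nphs1, with tests on the difference of their log2(FPKM + 0.1) values, in which the pseudocount still weighs on low genes. Of the other 7 genes, 1 was called higher relative to Nphs1 (Kirrel), beside 20.5% of all genes treated in the same way. None was called lower by limma, beside 6.54% of all genes, and none was lower at an unadjusted p under 0.05. The Kirrel level was 0.14, 0.168, 0.0997 and 0.111 of that of Nphs1 in the sham mice B607, B634, B636 and H249, and 0.324 to 0.818 in AAN. The groups did not overlap, and the ratio was 3.25-fold higher (log2 1.70 ± 0.31, limma adjusted p = 0.000178). With a pseudocount of 1 the log2 change in the Kirrel ratio was 0.95, under the limit of 2-fold. The Ptpro ratio was 0.363, 0.303, 0.205 and 0.346 in sham and 0.493 to 0.664 in AAN, again without overlap. Its rise of 0.83 ± 0.27 on the log2 scale (1.78-fold, limma adjusted p = 0.0198) stayed under the limit of 2-fold.

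The Plce1 ratio was 0.0403 to 0.0524 in sham and 0.0538 to 0.113 in AAN, so that the ranges nearly met but did not overlap. The limma adjusted p was 0.245 (log2 0.54 ± 0.34), and the exact permutation p was 0.0429, unadjusted. The ratios of the other 4 genes overlapped between the groups. For Podxl the ratio ran from 3.88 to 8.22 in sham and 2.63 to 8.28 in AAN (log2 -0.14 ± 0.33, 95% interval -0.82 to 0.55). That of Wt1 was 0.25 ± 0.32, that of Synpo 0.70 ± 0.37 and that of Magi2 -0.53 ± 0.39 on the log2 scale, with limma adjusted p of 0.593, 0.157 and 0.323. Against Nphs1, then, Kirrel and Ptpro were the genes whose ratio passed an adjusted p of 0.05. For Ptpro the limma adjusted p was 0.121 without sham mouse B636, 0.0531 without sham mouse B634, 0.09 in the mice with B tags alone, 0.135 with a pseudocount of 1 and 0.0952 with Podxl as the reference gene.

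**Figure D3:**
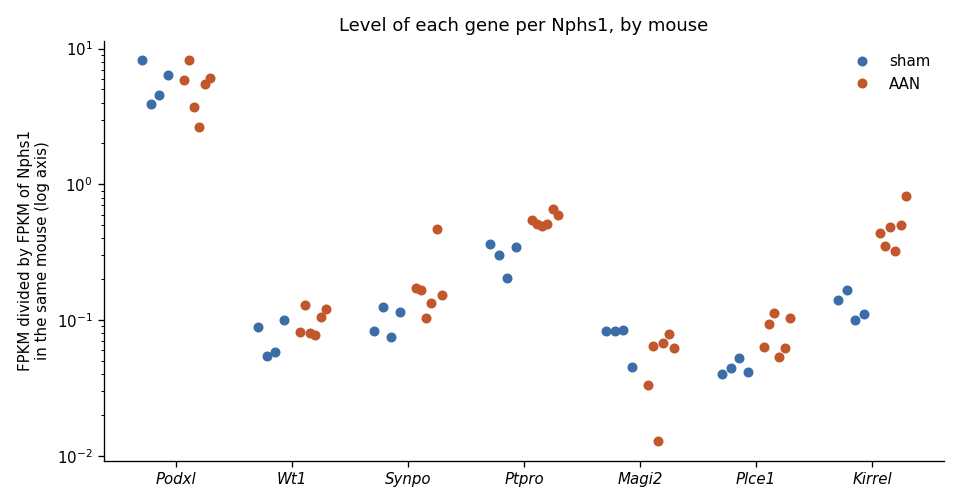
FPKM of 7 genes divided by that of Nphs1 in the same mouse (vertical log axis), with a point for each of 4 sham and 6 AAN mice. The AAN points of Kirrel, Ptpro and Plce1 lie above the sham points, and those of the other 4 genes overlap them.

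The wider slit diaphragm was read from a list of 16 further proteins and adaptors, 15 of which had a level that could be tested. Of these, 9 were called higher and none lower by limma (also none at an unadjusted p under 0.05), and in 10 every AAN mouse lay above every sham mouse, with a median log2 fold change of 1.20. Both counts include Kirrel3, which had a sham mean of 0.016 FPKM and reached the level for testing through its AAN values alone. Over all genes tested, 35.8% were called higher, in 40.3% every AAN mouse lay above every sham mouse, and the median was 0.75. Which cells of the cortex carried the RNAs of this list was not tested, so the counts do not describe podocytes alone.

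Cd2ap, which links nephrin to actin and which tubular cells also make, rose from 11.1 ± 1.05 to 31.8 ± 5.94 FPKM (log2 1.50 ± 0.17, limma adjusted p = 1.26e-05), and it was 0.74 and not called under the median of ratios. Trpc6, a calcium channel of the foot processes, was at 0.13 ± 0.0708 and 0.211 ± 0.0999 FPKM (log2 0.43 ± 0.31, adjusted p = 0.244). Kirrel2, a relative of Kirrel and the neighbour of Nphs1, lay under the limit for testing, at 0.00828 to 0.0516 FPKM in sham and 0 to 0.102 in AAN. Kirrel3, the other relative of Kirrel, was listed at 0 in 1 sham mouse and reached 0.0375 FPKM in the others, and was at 0.243 to 0.54 in AAN.

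A further 4 lists held the rest of the podocyte genes. Of 11 genes of the foot process cytoskeleton, 4 were called higher, beside 35.8% of all genes tested, with a median of 0.51. Ezrin (Ezr), which ties podocalyxin to actin, was at 115.0 and 165.0 FPKM in sham and AAN (log2 0.51, limma adjusted p = 0.0333), under the limit of 2-fold and at -0.25 with the median of ratios. Arhgdia, an inhibitor of small GTPases that shape the actin cytoskeleton, was at 68.3 and 121.0 FPKM (log2 0.85, adjusted p = 0.00593), at 0.0817 under the median of ratios (adjusted p = 0.705), and called higher at 1.21 with the same FPKM total in every mouse.

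Of 7 podocyte transcription factors, 5 were called higher, beside 35.8% of all genes tested, with a median of 1.28. Tcf21, which podocytes and stromal cells both use, rose from 8.31 ± 2.46 to 34.9 ± 8.24 FPKM (log2 2.06 ± 0.25, limma adjusted p = 2.54e-05), and it was called higher after the median of ratios and after quantile normalization.

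Of 9 genes of the glomerular basement membrane and of secreted podocyte proteins, 2 were called higher, beside the same 35.8%, with a median of 0.89. They were Lama5, a laminin chain, which rose from 10.9 ± 2.19 to 30.9 ± 8.46 FPKM (log2 1.47, limma adjusted p = 0.000189), and agrin (Agrn), a heparan sulfate proteoglycan, which rose from 7.65 ± 1.53 to 32.7 ± 6.3 FPKM (log2 2.08, adjusted p = 2.77e-06). Both also occur in other basement membranes of the cortex. Under the median of ratios Lama5 was at 0.71 and was not called. Of 8 other podocyte genes, 3 were called higher, beside the same 35.8%, with a median of 0.61. Podoplanin (Pdpn), a surface protein shared with lymphatic vessels and stromal cells, rose from 2.32 ± 0.642 to 23.8 ± 8.32 FPKM (log2 3.26, adjusted p = 2.55e-06). The cell cycle inhibitor Cdkn1c was at 9.78 ± 2.67 and 14.7 ± 4.44 FPKM (log2 0.58, adjusted p = 0.0664), and at -0.17 under the median of ratios.

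Over the 5 lists together, 23 of 50 podocyte genes were called higher and none lower by limma, beside 35.8% higher and 3.43% lower of all genes tested. The 23 include Kirrel3, which reached the level for testing through its AAN values alone. At an unadjusted p under 0.05, 1 gene was lower. That gene, Col4a3, a collagen chain of the mature glomerular basement membrane, is named because of its value, and was at 20.6 ± 4.7 FPKM in sham and 12.8 ± 3.57 in AAN (log2 -0.71, limma adjusted p = 0.0275). The median of the 50 was 0.90 and 28 lay above the median of all genes. Under the median of ratios the split was 14 higher and 5 lower (Arhgap24, Clic5, Col4a3, Col4a4 and Vegfa), beside 3261 and 1801 of all 17129 genes. After quantile normalization it was 14 and 2 (Col4a3 and Pard3), beside 2232 and 2157.

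**Figure D4:**
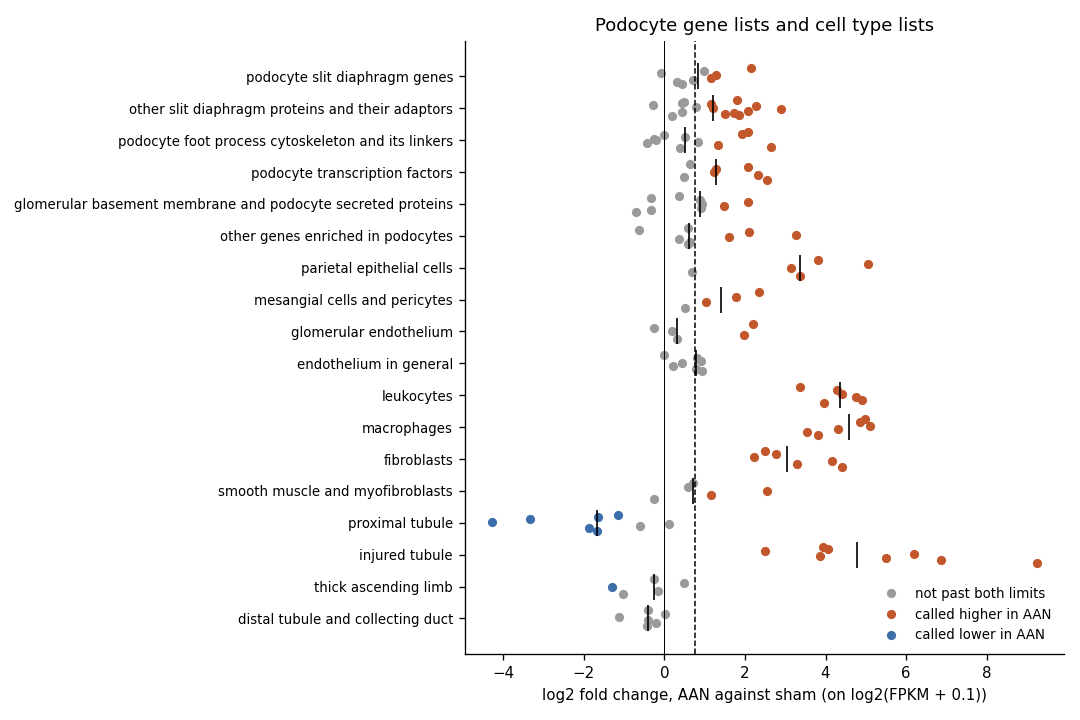
Log2 fold change (horizontal axis, AAN against sham) of every tested gene of each list, coloured by its call, with a black tick for the median of the list and a dashed line at 0.75, the median of all genes tested. The podocyte lists lie around the dashed line, the leukocyte, macrophage, fibroblast and injured tubule lists lie to its right, and 7 of the 8 proximal tubule genes lie to the left of 0.

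Markers of several other cell types had larger fold changes than most slit diaphragm genes, and their part in the results above was not tested. All 6 leukocyte genes were called higher, beside 35.8% of all genes tested, with a summed level of 7.65 to 14.0 FPKM in sham and 138.0 to 419.0 in AAN, and the most abundant, Cd52, went from 4.83 to 160.0. All 6 macrophage genes were called higher, beside the same 35.8%, with sums of 37.5 to 60.3 and 610.0 to 2130.0 FPKM, led by the complement gene C1qa (17.9 and 671.0). Macrophages can carry Ptpro, and these sums were higher in AAN, as was Ptpro. Within AAN, mouse B614 had the lowest macrophage sum (610.0 FPKM) and the highest Ptpro level (4.66). Mouse B642 had the highest sum (2130.0 FPKM) and Ptpro at 3.82. The part of macrophages in the Ptpro level was not tested.

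The 6 fibroblast genes were all called higher, at summed levels of 13.0 to 18.3 and 107.0 to 246.0 FPKM, led by the collagen gene Col1a1 (2.75 and 63.4), and Lum, a small proteoglycan, was listed at 0 in 1 sham mouse. Lum had a sham mean of 0.0518 FPKM and reached the level for testing through its AAN values alone. Of 5 smooth muscle genes, 2 were called higher, beside 35.8% of all genes tested, at sums of 43.3 to 66.1 and 75.2 to 272.0, led by Tagln (14.5 and 92.2). Of 4 mesangial and pericyte genes, 3 were called higher, at sums of 7.05 to 9.08 and 20.7 to 32.0, led by Pdgfrb (3.45 and 12.3). The summed level of each of these 3 lists was higher in every AAN mouse than in any sham mouse, as was Tcf21, which stromal cells also use.

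Genes listed for other cells of the glomerulus were read in the same whole cortex. Of 5 genes of the parietal epithelium that lines Bowman's capsule, 4 were called higher, beside 35.8% of all genes tested. Their sums were 23.0 to 32.1 FPKM in sham and 91.0 to 224.0 in AAN, led by Krt18 (11.6 and 107.0). Keratins of this list are also made by injured tubules, and the part of tubules in the other genes of the list was not tested. Of 5 genes of the glomerular endothelium, 2 were called higher, beside 35.8% of all genes tested, at sums of 45.5 to 65.0 and 86.9 to 167.0, led by the plasminogen activator Plat (23.4 and 94.4). None of 7 general endothelial genes was called by limma, beside 35.8% called higher of all genes tested. At an unadjusted p under 0.05, 5 of the 7 were higher. Pecam1, Cdh5, Egfl7 and Esam, named because of their values, passed a limma adjusted p of 0.05 under the limit of 2-fold. They lay higher in every AAN mouse, as 40.3% of all genes did. Of all 17129 genes tested, 10509 passed that adjusted p in either direction. The sums of the list were 26.7 to 43.3 and 48.0 to 63.4, led by the junction gene Cdh5 (8.37 and 14.2). The median log2 fold change was 0.31 for the glomerular endothelial list and 0.77 for the general one, beside 0.75 for all genes.

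Of 8 proximal tubule genes, 6 were called lower, beside 3.43% of all genes tested, at sums of 2470.0 to 4370.0 FPKM in sham and 695.0 to 2200.0 in AAN. Slc34a1, the phosphate transporter that leads this list, fell from 2010.0 ± 627.0 to 674.0 ± 413.0. All 8 genes of injured tubules were called higher, beside 35.8% of all genes, at sums of 148.0 to 245.0 and 1460.0 to 3660.0, led by osteopontin (Spp1, 146.0 and 2190.0), and the injury genes Havcr1 and Krt20 were each listed at 0 in 1 sham mouse. Havcr1 had a sham mean of 0.0337 FPKM and reached the level for testing through its AAN values alone. Of 5 genes of the thick ascending limb, 1 was called lower, beside the same 3.43%, with Umod, uromodulin, the most abundant (882.0 and 522.0). None of 6 distal genes was called by limma, 1 was lower at an unadjusted p under 0.05, and the list was led by the sodium chloride cotransporter Slc12a3 (188.0 and 156.0). The sums of both distal lists overlapped between the groups. The podocyte gene Nphs1 and the proximal tubule gene Slc34a1 were detected in all 10 mice.

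How the slit diaphragm genes varied among mice of a group was described by Pearson's r of the deviations from the group means over the 10 mice, with the levels set by the median of ratios. These values share their libraries and their depth, so no p is given. The closest pair was Podxl and Wt1 (r = 0.856), followed by Wt1 and Ptpro (0.751), Nphs1 and Ptpro (0.728) and Nphs1 and Wt1 (0.619). For Kirrel r lay between -0.101 (with Nphs1) and 0.275 (with Ptpro) against the other 7, and with the values as deposited between 0.0278 (with Synpo) and 0.453 (with Ptpro). The lowest of all pairs was Synpo and Plce1 (-0.376, and -0.355 as deposited).

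Among 12237 genes averaging 1 FPKM or more, the 10 whose deviations were most like the mean of the 8 were Clic5 (r = 0.955), Fbxo3 (0.952), C1qtnf1 (0.949), Mettl15 (0.947), Them4 (0.944), Gga2 (0.94), Clec14a (0.939), Slc22a5 (0.935), Tmtc1 (0.935) and Hsdl2 (0.934). With the values as deposited, 7 of these 10 were again among the first 10. Clic5, which podocytes use to tie ezrin to actin, was the 1 gene of the 10 on a podocyte list, at 17.8 ± 5.73 FPKM in sham and 15.1 ± 4.93 in AAN (log2 -0.25 ± 0.27, limma adjusted p = 0.434). Of 43 other podocyte genes ranked, 2 were among the first 100 (Clic5 and Sema3g) and the median r was -0.03 beside -0.01 for all genes ranked.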

How the data were processed

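RNA of kidney cortex from 4 sham and 6 AAN mice was sequenced, and the deposited values are FPKM, which the authors made with Hisat2 2.0.4 and Stringtie 1.3.0 on GRCm38 (versions from the submitters' processing notes). Ensembl identifiers were given symbols through GENCODE mouse release 21 (21650 of 21792). The 8 genes and all lists were chosen with earlier results of these data known. Levels were taken as log2(FPKM + 0.1), without rescaling, for the 17129 genes that averaged 0.1 FPKM or more, and AAN was tested against sham with limma 3.58.1 (R 4.3.3, trend and robust, two-sided), with Benjamini-Hochberg adjustment over all genes tested. The same fit was run after subtracting the Nphs1 value of each mouse (17128 genes). Single values were tested by exact permutation over 210 splits. The fit was tested on simulated data. The labels name no batch. The limma p-values set the difference between the groups against the spread between mice of a group, which the fit moderates over all genes tested.

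Depth was recovered in genes with 1 transcript, where values under 0.3 FPKM were whole fragments within 0.05 in 94.6% to 96.9% of cases. In genes with several transcripts 9.81% to 11.6% were whole, so that fragments behind a gene are given as upper limits from its longest transcript, and no count test was run. Named genes were the 8, Kirrel2, Cd2ap and Trpc6, the 2 most abundant genes and any called lower of each other podocyte list, the most abundant gene and any listed at 0 of each cell type list, listed genes that overlap one of the 8, and the 10 genes most like them. Alternatives changed the pseudocount, the filter, the scaling, the fit, the fold limit, the mice and the reference gene of the ratios. Some genes that the rule names stay in the counts but are not reported here singly.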

Additional observations from a re-analysis of the deposited data

Results flagged for a closer look

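In 4 of 30 groups of values examined over the 8 genes and their ratios, 1 mouse lay far from the rest of its group, where chance gives about 1.5 of 30 (1 in 20). Wt1 was at 1.19 FPKM in AAN mouse B614, against at most 0.666 in the other 5 AAN mice. The ratio of Synpo to Nphs1 was 0.469 in AAN mouse B642, against at most 0.173 in the others. The ratio of Kirrel to Nphs1 was 0.818 in AAN mouse B666, which had the lowest Nphs1 and the highest Kirrel level of its group, against at most 0.501 in the others. The ratio of Magi2 to Nphs1 was 0.0449 in sham mouse H249, against 0.0832 to 0.0841 in the other 3 sham mice.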

How the results depend on the processing

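The number of slit diaphragm genes called higher, 3 in the report, was 1 with a pseudocount of 1, 1 under the median of ratios and 1 after quantile normalization, when 1 (Magi2) was called lower. It was 4 with a pseudocount of 0.01 and 4 with the same total in every mouse, and leaving out each mouse in turn gave 3 to 4. Other podocyte genes called higher fell from 23 to 14 under the median of ratios and 14 after quantile normalization, with 5 and 2 called lower, 28 were called higher with the same total, and 1 was called lower without a fold limit. Relative to Nphs1, 0 genes were called higher with a pseudocount of 1, where Kirrel was at 0.95 on the log2 scale, and 2 without a fold limit. The log2 fold change turned under the median of ratios to -0.31 for Nphs1, -0.46 for Podxl, -0.0191 for Trpc6, -0.25 for Ezr and -0.17 for Cdkn1c. After quantile normalization it turned to -0.29 for Nphs1, -0.0231 for Podxl, -0.58 for Wt1, -0.10 for Synpo, -0.30 for Plce1 and -0.87 for Trpc6. Magi2 turned to 0.21 with the same total in every mouse, and ranged from -0.22 to 0.18 with 1 mouse left out (0.0602 without sham mouse B607, 0.18 without AAN mouse B630). The ratio to Nphs1 turned with a pseudocount of 1 for Wt1 (-0.11) and Plce1 (-0.0487), and that of Podxl ranged from -0.31 to 0.0535 with 1 mouse left out (0.0535 without sham mouse B607, 0.0449 without AAN mouse B639). The cause was not tested. Kirrel was called higher under every alternative run for its fold change. Wt1, Synpo, Magi2 and Plce1 had no value with a filter at a mean of 1 FPKM. Depth limits the genes with low levels, such as Wt1 and Magi2, which rest on at most 7.54 to 60.6 fragments a mouse. No paired analysis was possible because the replicate numbers used here only name the mice, and no label ties a sham mouse to an AAN mouse.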
